A study of Mus musculus with 24 samples.

Results

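Monocytic myeloid-derived suppressor cells (M-MDSCs) are described here for the interaction of interleukin-6 (IL-6) genotype label and lymphodepletion: the difference, gene by gene, between the response to lymphodepletion in mice labelled IL-6 knockout (KO) and the response in mice labelled wild type (WT). The samples were all those whose labels give the cell type as M-MDSC, 12 of the 24 in the series, and the other 12 were polymorphonuclear MDSCs (PMN-MDSCs). The mice bore established B16 tumours, a transplantable melanoma line, and the cells were sorted from the spleen to a purity above 99%, as the labels state. WT-labelled mice were C57BL/6, and KO-labelled mice were B6.129S2-Il6tm1Kopf/J, a germline Il6 mutant. Each label was either untreated or lymphodepleted with cyclophosphamide and fludarabine 7 days before collection, and each of the 4 groups had 3 libraries. All 4 groups therefore shared tumour and organ, the labels name no age or sex, and no group of tumour-free mice is analysed here. The KO label also carries a difference in strain background, which cannot be told apart from the Il6 mutation.

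MDSCs are a mixed population of incompletely matured myeloid cells, named for their hold on T cell responses and found in numbers where a tumour grows, and the monocytic kind resembles inflammatory monocytes. IL-6 binds its receptor together with the shared subunit gp130, and Janus kinases then phosphorylate STAT3, which drives feedback inhibitors such as Socs3 and survival genes such as Mcl1 and Bcl2l1. Lymphodepleting chemotherapy removes lymphocytes and dividing marrow cells, and recovery from it is marked by renewed myelopoiesis, in which dividing precursors of granulocytes and monocytes leave the marrow and can seed the spleen.

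Total reads ran from 7237462 to 11193088 per library, and 11570 of 23479 genes passed the filter of 10 or more normalized counts in at least 3 of the 12 libraries. The monocyte markers Ccr2 (3366 to 7506 normalized counts), Csf1r (3965 to 9520), Itgam (4797 to 8036) and Ly6c2 (366 to 1723) were present in all 12 libraries. Il6 itself went against its label. It had 41.2, 38.3 and 33.3 normalized counts in the untreated KO-labelled libraries and 38.9, 16.2 and 45.3 in the lymphodepleted ones, but at most 0.944 in the untreated and 3.87 in the lymphodepleted WT-labelled libraries. Counts per gene do not show which exons those reads cover, so the libraries are named by label throughout and every direction between labels rests on the labels. The untreated KO-labelled library 3 stood apart from its group in cell cycle genes, with a mean level of 7.92 on the log2(normalized count + 1) scale over 28 mitosis genes against 6.23 and 4.89 in libraries 1 and 2. List medians that moved by over 1.5 times without it are given both ways, as is Mki67.

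A negative interaction means that a gene went up less, or down more, with lymphodepletion in the KO-labelled mice than in the WT-labelled mice. The same number is the KO-minus-WT difference under lymphodepletion minus that difference without treatment. At this setting 1 gene was called, Nedd4, at a Benjamini-Hochberg adjusted p under 0.05 with limma, which is 0.00864% of the genes tested. Genes at an unadjusted p under 0.05 numbered 1413 (12.2%), 745 of them above 0 (6.44%) and 668 below 0 (5.77%), where 578.5 would fall by chance alone. Of all genes tested 49.9% were above 0 and 50.1% below. On whole reads recovered from the same values, edgeR called 2 genes (Nedd4 and Nkg7, 0.0173%), and DESeq2 called 71 (0.614%), 50 of them below 0 and 21 above. All 71 had the same sign and an unadjusted p under 0.05 in limma. The median standard error of an interaction was 0.31 log2 units and the median half-width of its unadjusted 95% interval 0.67. A call at an adjusted p under 0.05 needs a larger difference than this half-width, so moderate differences between the responses could be missed for most genes. With a library left out limma called 0 genes in 10 of the 12 fits, 1 without lymphodepleted KO-labelled library 2 and 7 without lymphodepleted WT-labelled library 2.

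More genes were called between the labels without treatment than under lymphodepletion. Without treatment 466 genes (4.03%) differed between the labels by limma, 259 higher (2.24%) and 207 lower (1.79%) in KO-labelled mice. Under lymphodepletion 24 (0.207%) did, 18 higher (0.156%) and 6 lower (0.0519%). On recovered reads edgeR gave 361 higher and 138 lower without treatment, and DESeq2 714 and 357. Lymphodepletion itself changed 2122 genes (18.3%) in WT-labelled mice, 1102 up (9.52%) and 1020 down (8.82%), and 1346 (11.6%) in KO-labelled mice, 707 up (6.11%) and 639 down (5.52%). These counts rest on few libraries. The untreated count fell to 54, 79 and 91 without untreated WT-labelled libraries 3, 1 and 2, and to 64 and 87 without untreated KO-labelled libraries 1 and 3. The lymphodepleted count was 62 without lymphodepleted KO-labelled library 2, 56 without lymphodepleted WT-labelled library 1, and 0 without lymphodepleted KO-labelled library 1 or 3. It was 13 without untreated KO-labelled library 1, and 6 without lymphodepleted or untreated WT-labelled library 3. The response count in WT-labelled mice was 1163 without lymphodepleted library 3 and 1229, 1365 and 1385 without untreated libraries 3, 1 and 2. That in KO-labelled mice was 580 without lymphodepleted library 2 and 568 and 713 without untreated libraries 1 and 2. Of the 668 genes below 0 at an unadjusted p under 0.05, 537 (80.4%) had the label difference farther from 0 without treatment than under lymphodepletion, and of the 745 above 0, 576 (77.3%) did, beside 60.7% of all genes tested. The typical gene of the lower set was higher in KO-labelled than in WT-labelled mice before treatment (median difference 0.74) and not under lymphodepletion (median −0.27). Its median response was 0.59 in WT-labelled and −0.29 in KO-labelled mice. The upper set had the mirror pattern, with median label differences of −0.45 and 0.21 and median responses of −0.46 and 0.21. Because these sets were chosen by the interaction, the medians describe them and test nothing. The untreated groups enter both the label difference and the responses, so these quantities are not independent of each other.

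**Figure D1:**
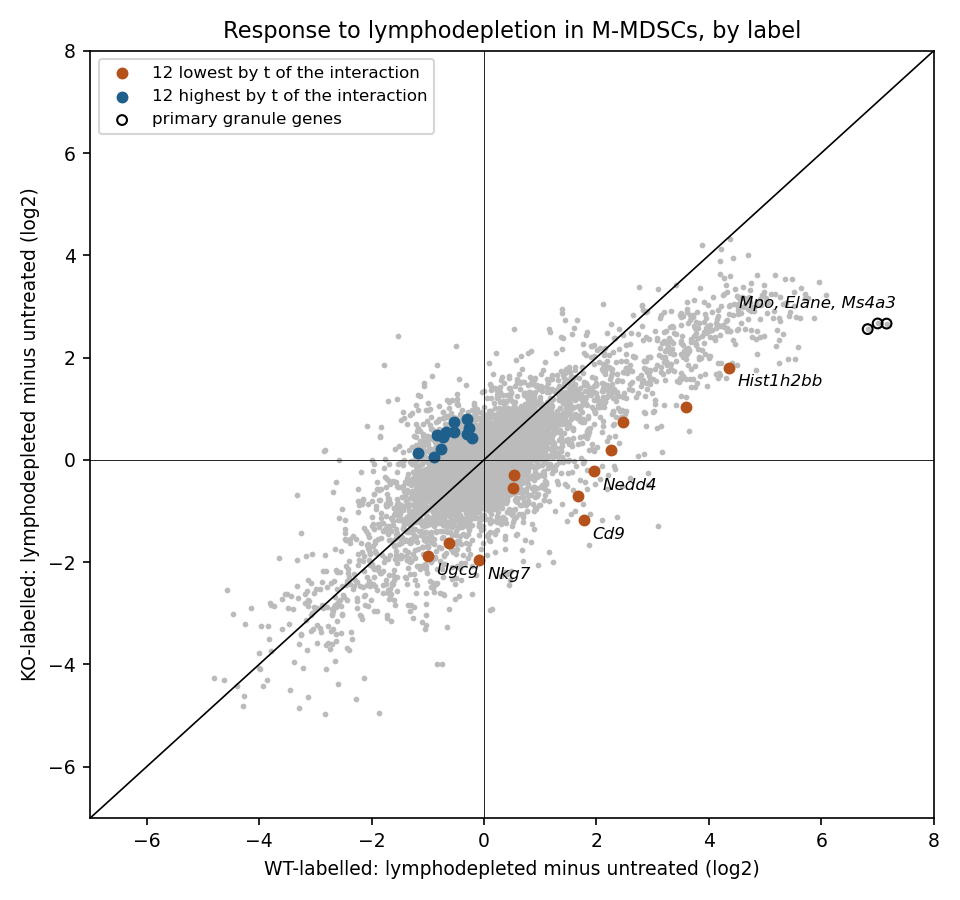
Response to lymphodepletion (lymphodepleted minus untreated, log2) in WT-labelled mice on the horizontal axis and KO-labelled mice on the vertical axis, 1 grey point for each of 11570 genes. The diagonal marks equal responses, so the vertical distance from it is the interaction. Orange points are the 12 named genes with the lowest and blue points the 12 with the highest moderated t, and open circles are Mpo, Elane and Ms4a3, which lie far to the right and below the diagonal.

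Nedd4 encodes a HECT-domain ubiquitin ligase that tags membrane receptors and signalling proteins for sorting and degradation. It lies at chr9:72662331-72749851 of the mouse genome (GRCm38.p6). RefSeq gives it 2 promoter windows, and the second holds the spaced palindrome TTCNNNGAA, the core to which STAT factors bind. They are shown, with the window of Nkg7, because these were the genes that limma or edgeR called. Each runs from 250 bases before to 50 after an annotated start, 5′ to 3′ on the plus strand, with a TTCNNNGAA match in capitals.
Nedd4 first start, chr9:72662081-72662380: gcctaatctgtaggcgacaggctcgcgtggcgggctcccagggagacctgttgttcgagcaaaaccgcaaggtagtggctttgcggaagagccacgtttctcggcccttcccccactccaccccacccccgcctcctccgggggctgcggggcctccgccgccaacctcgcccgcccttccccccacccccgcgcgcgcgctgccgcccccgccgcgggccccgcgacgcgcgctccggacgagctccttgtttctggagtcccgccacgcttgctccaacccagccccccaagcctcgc
Nedd4 second start, chr9:72693048-72693347: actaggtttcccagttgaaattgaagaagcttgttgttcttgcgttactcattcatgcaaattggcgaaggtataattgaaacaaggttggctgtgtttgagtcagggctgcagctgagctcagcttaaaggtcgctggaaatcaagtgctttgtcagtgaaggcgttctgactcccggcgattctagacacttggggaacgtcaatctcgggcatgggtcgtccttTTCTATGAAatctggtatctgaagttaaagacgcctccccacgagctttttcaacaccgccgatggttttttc
Nkg7, chr7:43436888-43437187: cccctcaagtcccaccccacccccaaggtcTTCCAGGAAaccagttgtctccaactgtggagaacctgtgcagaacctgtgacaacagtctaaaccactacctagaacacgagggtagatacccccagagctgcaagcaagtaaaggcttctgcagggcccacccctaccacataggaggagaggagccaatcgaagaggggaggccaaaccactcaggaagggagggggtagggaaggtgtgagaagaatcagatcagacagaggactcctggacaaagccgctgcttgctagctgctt
The match in the second Nedd4 window begins 23 bases before its start site, and that of Nkg7 220 bases before. The first Nedd4 window holds none. The palindrome, which reads the same on both strands, occurs in 8.30% of 32851 windows of this length and in 6.95% of the 11681 windows of tested genes. It was found in 2 of the 10 windows of the 12 lowest named genes, the same 2 that are printed above with a match. It was found in 0 of the 12 windows of the 12 highest. These windows covered 9 of the lowest and 10 of the highest genes. The cell cycle element TTTGAA, searched on both strands, occurs in 12.4% of the windows of tested genes and was found in 2 of 10 and 1 of 12. A match describes the letters and says nothing of binding in these cells.

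In untreated WT-labelled mice Nedd4 had 118, 84.9 and 116 normalized counts. It had 443, 364 and 429 in lymphodepleted WT-labelled mice, 365, 356 and 464 in untreated KO-labelled mice, and 257, 442 and 336 in lymphodepleted KO-labelled mice. Untreated WT-labelled mice alone were low, and none of their libraries overlapped those of any other group, while the other 3 groups overlapped each other. Nedd4 rose 3.88-fold with lymphodepletion in WT-labelled mice (log2 1.96 ± 0.20 SE, limma adjusted p = 9.5e-05, n = 3 per group). In KO-labelled mice the response was −0.22 ± 0.20 (adjusted p = 0.531). Between labels it was 3.71-fold higher in KO-labelled mice without treatment (log2 1.89 ± 0.20, limma adjusted p = 0.000617). Under lymphodepletion the difference was −0.28 ± 0.20 (adjusted p = 0.706). The interaction was −2.17 ± 0.28 with a 95% interval from −2.79 to −1.56 (limma adjusted p = 0.0301, edgeR 0.0295, DESeq2 1.2e-07). Its size changed little when any library was left out (−2.37 to −1.98), but the limma call was lost in 10 of 12 such fits, with adjusted p between 0.00771 and 0.146, and remained without lymphodepleted KO-labelled library 2 or lymphodepleted WT-labelled library 2. The limma call was also lost with quantile normalization (adjusted p = 0.0527), with the replicate number as a block (0.12) and with all 24 libraries of the series in 1 fit (0.793).

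No other gene of the NEDD4 family or its adaptors was called by limma, edgeR or DESeq2. Of the 11 others tested, 3 were below 0 and 8 above, with a median of 0.12 against −0.00 over all genes, and the median ran from 0.04 without lymphodepleted KO-labelled library 1 to 0.25 without library 3 of that group. Nedd4l, the nearest relative of Nedd4, was at 0.50 ± 0.19 (limma adjusted p = 0.359), and Ndfip1, an adaptor that recruits and activates these ligases, at −0.65 ± 0.24 (adjusted p = 0.359). The genes whose levels over the 12 libraries were most like those of Nedd4 by Pearson correlation were Slc7a1 (0.919), an arginine transporter, Chst11 (0.909), a chondroitin sulfotransferase, Gpc1 (0.908), a membrane proteoglycan, Shmt2 (0.904), a mitochondrial enzyme of folate metabolism, and Golt1b (0.899). These libraries share their groups, so the values describe the pattern. Chst11, for example, had 40.0, 54.1 and 52.8 normalized counts in untreated WT-labelled mice, and between 73.1 and 169 in the 9 others.

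In PMN-MDSCs of the same design, fitted with all 24 libraries, Nedd4 was between 349 and 424 normalized counts in untreated and between 733 and 2021 in lymphodepleted WT-labelled mice. Its interaction there was −0.77 ± 0.49. The difference of the interactions between the cell types was −1.41 ± 0.69 (unadjusted p = 0.0528, limma adjusted p = 0.817), so it is not shown that the Nedd4 interaction differs between them. That fit treats the libraries of the 2 cell types as independent, and whether those of one number came from the same mouse is not given in the sources used here. Over all genes this difference was called for 0 of 13457 by limma, with 812 (6.03%) at an unadjusted p under 0.05. Without lymphodepleted WT-labelled PMN-MDSC library 3 it was called for 3 genes, and without library 1 of that group, or untreated KO-labelled PMN-MDSC library 1, for 1. Among named genes, Tbc1d10c (−2.02 ± 0.46), Chst11 (−2.17 ± 0.52) and Ctsd (−1.65 ± 0.43) had the smallest unadjusted p (0.000201, 0.000401 and 0.000913), with limma adjusted p from 0.542 to 0.696.

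Nkg7, a membrane protein of cytotoxic granules in natural killer (NK) and T cells, was high in 1 group. It had 458, 580 and 506 normalized counts in untreated KO-labelled mice. The other groups were at 110, 102 and 114 (untreated WT-labelled), 131, 81.2 and 98.3 (lymphodepleted WT-labelled) and 110, 143 and 144 (lymphodepleted KO-labelled). No untreated KO-labelled library overlapped any other. Without treatment Nkg7 was 4.69-fold higher in KO-labelled mice (log2 2.23 ± 0.19, limma adjusted p = 0.000209), and it fell 3.88-fold with lymphodepletion in KO-labelled mice (log2 −1.95 ± 0.19, adjusted p = 0.000122). In WT-labelled mice the response was −0.09 ± 0.19 (adjusted p = 0.774). The interaction of −1.86 ± 0.27 missed the threshold in limma (adjusted p = 0.0522) and passed it in edgeR (0.0295) and DESeq2 (8.7e-07).

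Marker transcripts of NK cells were also highest in the group in which Nkg7 was high. Under the WT label, however, they fell with lymphodepletion (median response −2.85), where Nkg7 changed little. The summed normalized count of 12 NK markers was 8396 to 11787 in untreated KO-labelled libraries, 2220 to 2669 in untreated WT-labelled, 563 to 1737 in lymphodepleted KO-labelled and 236 to 477 in lymphodepleted WT-labelled ones. None of the 12 was at 0 throughout. Their part in the Nkg7 result was not tested. Without treatment 10 of 12 were called higher in KO-labelled mice (6 of 11 tested without untreated KO-labelled library 3), beside 2.24% of all genes, and 11 of 12 fell with lymphodepletion under each label, beside 8.82% of all genes in WT-labelled and 5.52% in KO-labelled mice. Their median interaction was −0.37 (−0.23 without untreated KO-labelled library 3), with 0 of 12 at an unadjusted p under 0.05, beside 12.2% of all genes. Of the 12 interactions 9 were below 0 and 3 above, those of Itga2 (0.77), Txk (0.87) and Tbx21 (0.27). Xcl1, a chemokine of NK and T cells, had the lowest, at −2.40 ± 1.33 (limma adjusted p = 0.471). Its responses of −0.22 in WT-labelled and −2.62 in KO-labelled mice were like those of Nkg7. The first of these was the smallest of the 12 in size, so Xcl1 does not stand for the list. Ncr1, the NK receptor NKp46, ran from 327 to 378 and from 1248 to 1694 in untreated WT-labelled and KO-labelled mice, and from 24.1 to 69.3 and from 70.5 to 183 after lymphodepletion. In bulk samples, fewer cells of a type and less RNA per cell cannot be told apart.

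Ugcg and Tbc1d10c, also among the 12 lowest, had their highest values in untreated KO-labelled mice as well. Ugcg, the glucosylceramide synthase that begins glycosphingolipid synthesis, had 515, 545 and 489 normalized counts in untreated WT-labelled and 1038, 1180 and 995 in untreated KO-labelled mice, and 240, 258 and 279 and 311, 239 and 323 after lymphodepletion. It fell with lymphodepletion under both labels, by 0.99 on the log2 scale in WT-labelled and by 1.89 in KO-labelled mice (limma adjusted p = 0.000263 and 2.2e-05). The untreated groups did not overlap each other or the lymphodepleted ones, and the lymphodepleted groups overlapped. Tbc1d10c, a Ras inhibitor enriched in blood cells, had 478, 480 and 545 normalized counts in untreated KO-labelled mice and between 101 and 201 in every other library. Their interactions of −0.89 ± 0.19 and −1.01 ± 0.22 were not called in limma (adjusted p = 0.273 for each) and were called by DESeq2 (0.0102 and 0.0127).

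Other low genes were, like Nedd4, lowest in untreated WT-labelled mice. Cd9, a tetraspanin of the cell surface, had 29.8, 38.3 and 33.0 normalized counts in untreated WT-labelled mice, 206, 50.3 and 153 with lymphodepletion, 248, 200 and 99.9 in untreated KO-labelled and 44.6, 83.5 and 113 in lymphodepleted KO-labelled mice. Its untreated WT-labelled libraries lay below all 9 others, which spread widely, and its interaction was −2.94 ± 0.68 (limma adjusted p = 0.285, DESeq2 0.00207). Ctsd, the lysosomal protease cathepsin D, had 671, 920 and 754 in untreated WT-labelled mice and 1413, 1450 and 1498 in untreated KO-labelled mice, against 853 to 1405 and 946 to 1046 after lymphodepletion. It rose by 0.51 in WT-labelled and fell by 0.54 in KO-labelled mice (limma adjusted p = 0.0416 and 0.0455), and its interaction was −1.06 ± 0.23 (adjusted p = 0.273). Hvcn1, a proton channel of phagocytes, was at −2.07 ± 0.46, Itih5 at −2.37 ± 0.52 and Pmf1, a kinetochore protein, at −1.73 ± 0.39. Over the 12 lowest the limma adjusted p ran from 0.0301 to 0.285, and all 12 had the larger label difference without treatment.

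The 12 highest genes were mostly lowest in untreated KO-labelled mice. Adcy9, an adenylate cyclase that makes cyclic AMP, had 283, 246 and 224 normalized counts in untreated WT-labelled mice, 122, 118 and 133 in untreated KO-labelled mice, 206, 218 and 183 in lymphodepleted WT-labelled and 213, 248 and 189 in lymphodepleted KO-labelled mice. Only untreated KO-labelled mice were apart, below all 9 other libraries. Adcy9 rose by 0.79 ± 0.16 with lymphodepletion in KO-labelled mice (limma adjusted p = 0.00641), was lower in KO-labelled than in WT-labelled mice without treatment (adjusted p = 0.00636), and had an interaction of 1.10 ± 0.22 (adjusted p = 0.273, DESeq2 0.0103). Mefv, which encodes pyrin, the sensor of an inflammasome, had 1588, 1292 and 1451 in untreated WT-labelled and 595, 785 and 593 in untreated KO-labelled mice. With lymphodepletion it fell under the WT label (935, 1097 and 971) and rose under the KO label (1148, 972 and 758), for an interaction of 1.06 ± 0.23 (limma adjusted p = 0.273). Those directions passed the test at adjusted p = 0.0352 and 0.0438.

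Dock1, an activator of Rac in engulfment of dead cells, had 823, 1037 and 982 normalized counts in untreated KO-labelled mice and between 1155 and 1630 in every other library. Its interaction was 0.90 ± 0.19 (limma adjusted p = 0.273). Cep290, a protein of the ciliary transition zone and centrosome, had 233, 203 and 243 in untreated KO-labelled and 433, 381 and 374 in untreated WT-labelled mice, and 1.28 ± 0.27. Deptor, an inhibitor of mTOR, was at 1.22 ± 0.31, and Prkab2, a subunit of AMP-activated kinase, at 0.94 ± 0.22. In 12 of the 12 the responses under the labels had opposite signs, and in 11 the label difference was larger without treatment. The limma adjusted p ran from 0.273 to 0.328, so none was called. Sdccag8, Akap7, Ddx26b, Snx29, Usp35 and Srgap2 complete the set, and several of these genes overlap other annotated genes, from which reads cannot be told apart without strand.

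**Figure D2:**
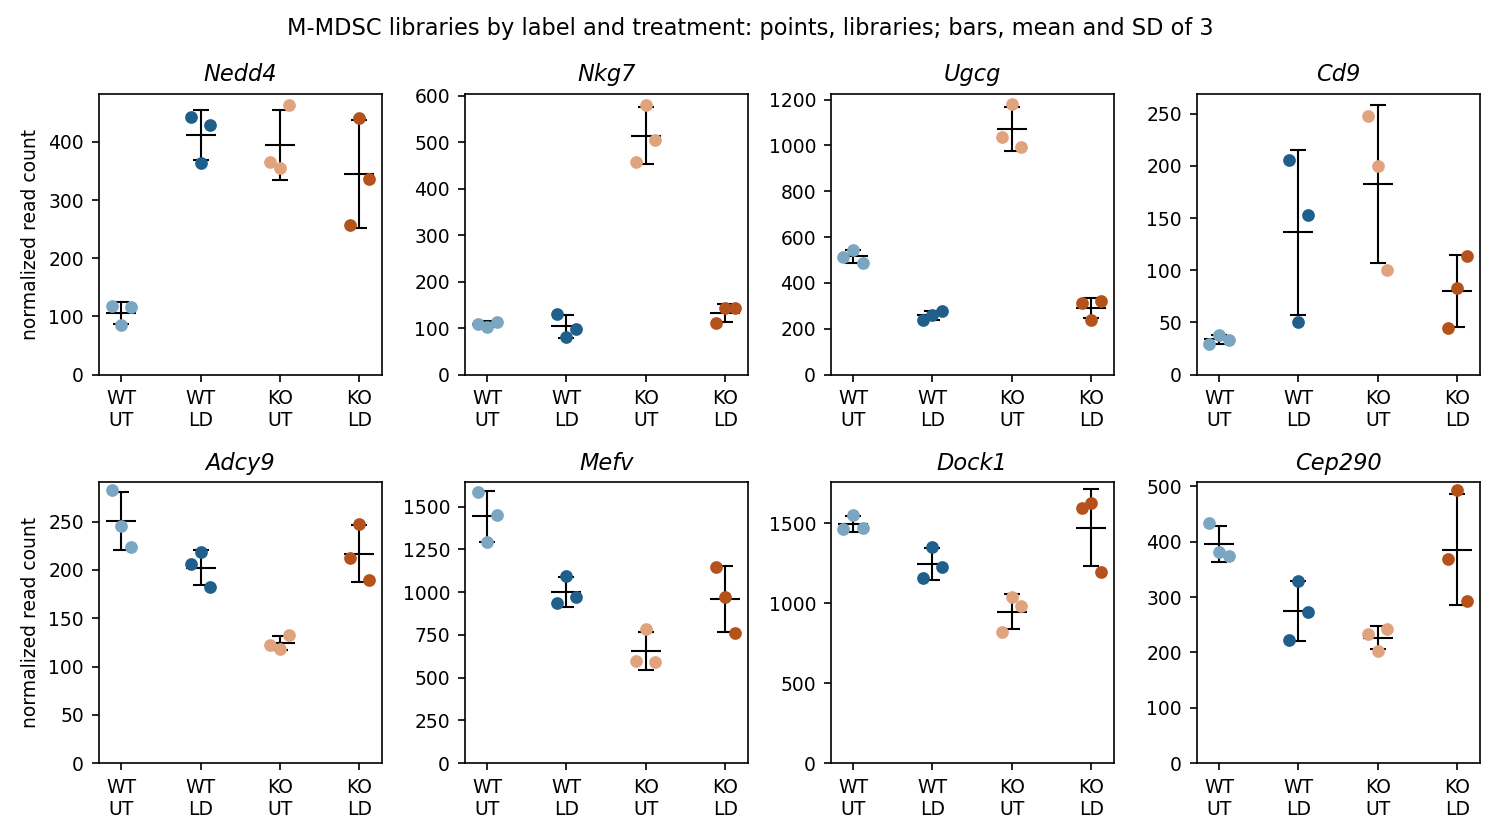
Normalized read count (vertical axis, linear from 0) of 8 genes in each of the 12 M-MDSC libraries, by label (WT, KO) and treatment (UT, untreated; LD, lymphodepleted). Points are libraries and bars the mean and SD of 3. Nedd4 is low only in WT UT, Nkg7 is high only in KO UT, and Adcy9 is low only in KO UT.

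The high and low genes differed in length. The median annotated span was 139 kb over the 12 highest and 17.8 kb over the 12 lowest, and 41.3 kb and 13.9 kb over all genes above and below 0 at an unadjusted p under 0.05, beside 22.5 kb over the 11518 genes with a span. With the genes in 4 equal sets by span, shortest to longest, the median interaction was −0.10, −0.04, 0.00 and 0.11. The level of the shortest set minus that of the longest was also taken in single libraries, relative to the mean of all 12. It was −0.13, −0.07 and −0.12 log2 units in untreated and 0.19, 0.03 and 0.13 in lymphodepleted WT-labelled libraries. In KO-labelled libraries it was −0.03, 0.08 and −0.04 without and −0.02, −0.02 and 0.10 with lymphodepletion. The untreated and lymphodepleted libraries did not overlap under the WT label and overlapped under the KO label. The part of gene length in the interaction was not tested.

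Cell division genes rose with lymphodepletion under both labels. All 28 genes of the mitosis and spindle list rose in WT-labelled and all 28 in KO-labelled mice by limma, beside 9.52% and 6.11% of all genes, with median responses of 4.63 and 2.84. Without treatment 3 of the 28 were called higher in KO-labelled mice, beside 2.24% of all genes, and 0 without untreated KO-labelled library 3. All 28 interactions were below 0 (median −1.68), 12 of them at an unadjusted p under 0.05, beside 5.77% of all genes, and 0 were called by limma, edgeR or DESeq2. Mki67, the proliferation marker Ki-67, had 469, 455 and 479 normalized counts in untreated WT-labelled mice and 1359, 396 and 4357 in untreated KO-labelled mice. After lymphodepletion it had 11444, 8177 and 14590 and 5911, 13686 and 11275. The lymphodepleted groups overlapped, and of the untreated KO-labelled libraries 2 were above and 1 below the WT-labelled ones. Its interaction was −1.70 ± 0.84 (limma adjusted p = 0.438), −0.84 without untreated KO-labelled library 3 and −2.57 without library 2 of that group. Without library 3 the median of the list was −0.88, with 27 of 28 below 0 and 7 at an unadjusted p under 0.05. Without library 2 it was −2.45, so its size rests on the spread of that group. The sign of the median held in all 21 alternatives tried, which reuse the same libraries. Genes of a list share those libraries, here and in the lists below, so counts of genes within a list are not independent evidence.

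Genes of DNA replication, such as the helicase subunits Mcm4 and Mcm5, gave values of the same sign. Of 26 tested, 23 were below 0, 9 of them at an unadjusted p under 0.05 (5.77% of all genes), with a median of −0.97. Without untreated KO-labelled library 3 the median was −0.46, with 22 below 0 and 5 at that p. Mcm5 was at −1.43 ± 0.50 (limma adjusted p = 0.341). Histone genes were grouped after their values had been seen. All 56 tested were below 0, with a median of −1.68, and 40 of them at an unadjusted p under 0.05, beside 5.77% of all genes. Without untreated KO-labelled library 3, all 55 then tested were below 0, with a median of −1.33, and 29 at that p. The 56 genes had median responses of 3.41 in WT-labelled and 1.58 in KO-labelled mice. DESeq2 called 50 genes below 0, which is 0.432% of all genes tested, and 11 of the 50 were histone genes. Hist2h4 had 22, 31.6 and 17 normalized counts in untreated WT-labelled, 93.5, 76.0 and 125 in untreated KO-labelled, 418, 147 and 383 in lymphodepleted WT-labelled and 127, 267 and 223 in lymphodepleted KO-labelled mice. Its interaction was −2.57 ± 0.55 (limma adjusted p = 0.273, DESeq2 0.00262). Copies of histone genes are nearly identical in sequence, and reads may be shared between them, which leaves the value of a single copy uncertain.

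Primary granule genes, which mark granulocyte and monocyte precursors, had a median interaction of −2.58. All 12 were below 0, 8 at an unadjusted p under 0.05, beside 5.77% of all genes. DESeq2 called 3 (Mpo, Ms4a3 and Nkg7), beside 0.432% of all genes called below 0. Nkg7, described above with the NK markers, is a member of this list whose responses ran unlike those of the others. The 11 other genes, set apart after the values were seen, all rose in WT-labelled mice, beside 9.52% of all genes. In KO-labelled mice 3 of them rose (9 without untreated KO-labelled library 3), beside 6.11% of all genes. The median interaction of the 11 was −2.61. Mpo, myeloperoxidase, had 21.2, 48.3 and 49.1 normalized counts in untreated WT-labelled mice, and 10398, 2580 and 4296 with lymphodepletion. In KO-labelled mice it had 946, 129 and 5297 without and 3471, 5009 and 9604 with lymphodepletion. All untreated KO-labelled libraries were above the untreated WT-labelled ones, and library 3 lay within the range of the lymphodepleted groups. Mpo rose by 7.00 ± 0.95 in WT-labelled mice (limma adjusted p = 0.000239), its response in KO-labelled mice was 2.67 ± 0.95 (adjusted p = 0.0874), and its interaction was −4.33 ± 1.34 (adjusted p = 0.328). Elane, neutrophil elastase, was at −4.27 ± 1.43 and Ms4a3, a gene of granulocyte-monocyte progenitors, at −4.50 ± 1.17. The median of the list was −1.42 without untreated KO-labelled library 3 and −3.29 without library 2. In PMN-MDSCs the Mpo interaction was −6.84 ± 1.28 (limma adjusted p = 0.0223), and the difference between the cell types was 2.51 ± 1.81 (adjusted p = 0.867).

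Later granule genes followed with smaller values. Of 18 secondary and tertiary granule genes 17 were below 0 (median −0.90), beside 50.1% of all genes, and 3 at an unadjusted p under 0.05, beside 5.77%. Lcn2, an iron-binding protein of neutrophil granules, had 43.2, 50.8 and 53.8 normalized counts in untreated WT-labelled and 142, 114 and 171 in untreated KO-labelled mice. It reached 3086, 357 and 2304 and 261, 1265 and 1273 with lymphodepletion. S100a8 and S100a9, the calprotectin subunits of neutrophils and monocytes, were at −1.92 ± 0.84 and −2.35 ± 0.90 (limma adjusted p = 0.391 and 0.359). They belong to a list of S100 and mature neutrophil genes, of which 10 were tested, 6 below 0 and 4 above. Cxcl2, also of that list, was at 1.90 ± 0.69 (limma adjusted p = 0.348). S100a9 ran from 115 to 239 and from 319 to 747 in untreated WT-labelled and KO-labelled mice, without overlap, and from 1850 to 13758 and 1395 to 5472 with lymphodepletion, with overlap. The sort was for M-MDSCs, and the summed count of 12 S100 and mature neutrophil genes was 2665 to 2815 in untreated KO-labelled and 3044 to 3393 in untreated WT-labelled libraries. The mean level of the 10 of these that were tested, on the log2(normalized count + 1) scale, was 4.88 to 5.66 and 5.10 to 5.41 in the same groups, and the summed count of the secondary and tertiary granule genes was 40081 to 67053 and 36029 to 50861, both with overlap. The first sum was 5691 to 21840 and 4564 to 10109 in lymphodepleted WT-labelled and KO-labelled libraries.

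**Figure D3:**
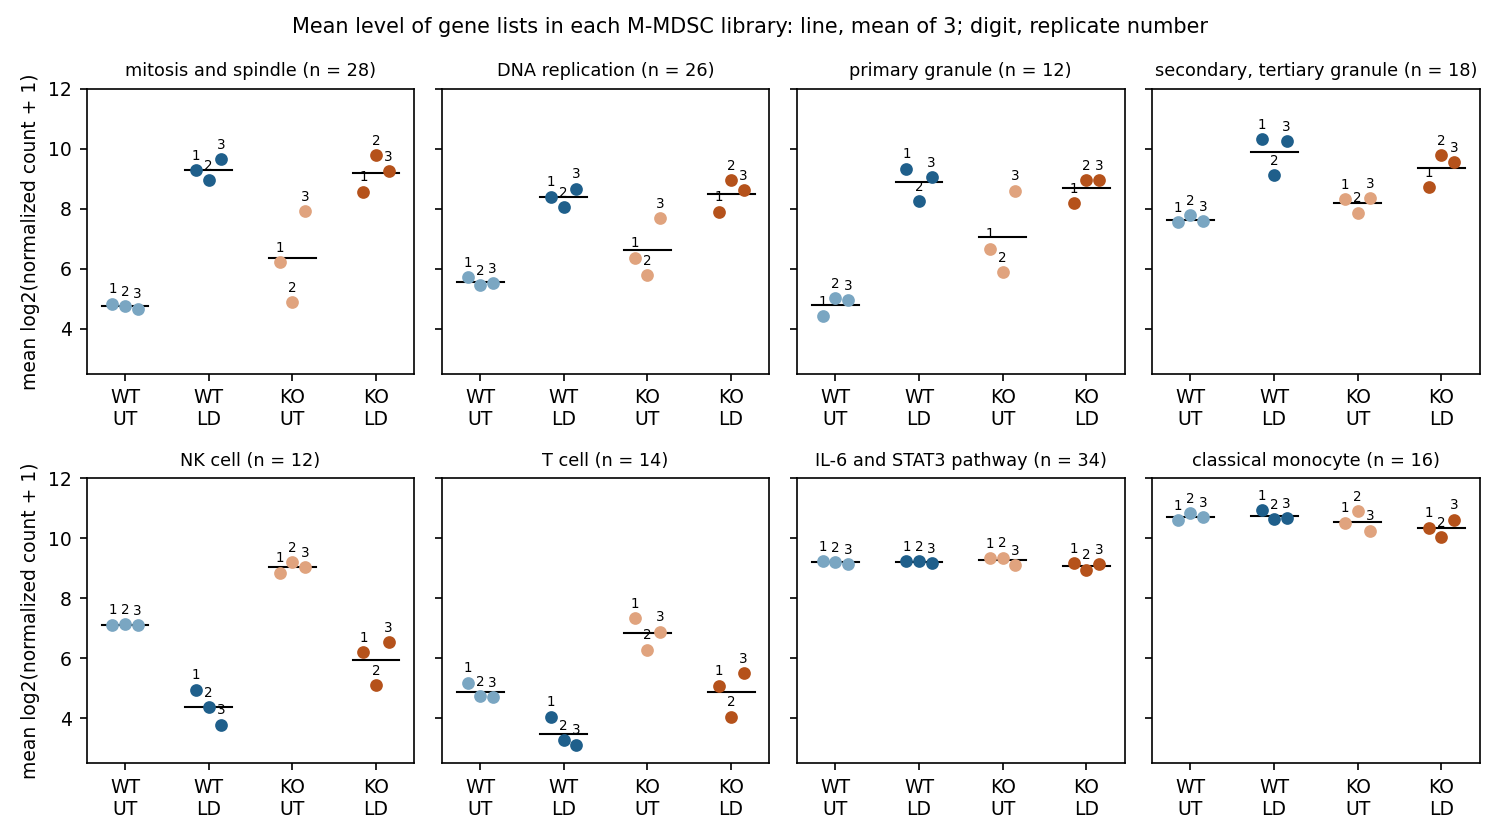
Mean of log2(normalized count + 1) over the genes of 8 lists in each M-MDSC library, by label and treatment, with the replicate number beside each point and a line at the mean of 3. In the mitosis list untreated KO-labelled library 3 sits at 7.92 and library 2 at 4.89. NK and T cell lists are highest in untreated KO-labelled mice, and the IL-6 and STAT3 list stays between 8.95 and 9.35.

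Genes of the IL-6 pathway itself showed no called interaction. Of 34 tested, 20 were below 0 and 14 above, with a median of −0.10. An unadjusted p under 0.05 was found for 2, both below 0, beside 5.77% of all genes. Without untreated KO-labelled library 3 the median was −0.19, with 24 below 0. The receptor Il6ra was at 0.20 ± 0.21 and gp130, Il6st, at 0.26 ± 0.18. Jak1, the kinase bound to gp130, had the smallest unadjusted p. It had 3017, 2838 and 2735 normalized counts in untreated WT-labelled and 4124, 4440 and 3447 in untreated KO-labelled mice, which did not overlap, and 1895 to 2364 and 1787 to 2274 with lymphodepletion, which did. It fell by 0.44 in WT-labelled and by 0.98 in KO-labelled mice (limma adjusted p = 0.0333 and 0.00073), and its interaction was −0.54 ± 0.19 (adjusted p = 0.337).

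Stat3 had an interaction of −0.12 ± 0.20 with a 95% interval from −0.54 to 0.31. Socs3, the feedback inhibitor that STAT3 induces, had 1116, 881 and 799 normalized counts in untreated WT-labelled mice and 362, 528 and 297 after lymphodepletion. In KO-labelled mice it had 622, 446 and 246 without and 306, 126 and 165 with treatment. It fell by 1.26 and by 1.14 under the WT and KO labels (limma adjusted p = 0.0218 and 0.0475), and the interaction was 0.12 ± 0.49 with an interval from −0.93 to 1.17. Cebpb, a transcription factor of emergency granulopoiesis, was at −0.15 ± 0.26. Il6 was at −1.20 ± 0.91 (adjusted p = 0.59).

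Survival genes likewise had no called interaction. Mcl1 was at 0.01 ± 0.23 and Bcl2l1, which encodes BCL-XL, at −0.12 ± 0.22, with intervals from −0.49 to 0.50 and from −0.60 to 0.36. Bcl2 had 332, 370 and 316 normalized counts in untreated WT-labelled and 756, 620 and 825 in untreated KO-labelled mice, and 123, 138 and 73.3 and 311, 225 and 309 with lymphodepletion. It fell under both labels, by 1.64 and 1.38, and was higher in KO-labelled mice in both conditions, by 1.10 and 1.36 (limma adjusted p = 0.0201 and 0.0228), with an interaction of 0.26 ± 0.31. Lymphocytes also express Bcl2. Of 14 T cell markers 9 were called higher in KO-labelled mice without treatment (1 without untreated KO-labelled library 3) and 0 under lymphodepletion. Of 12 B cell markers 0 and 1 were, and of 12 NK cell markers 10 and 2, beside 2.24% and 0.156% of all genes. The median label differences without and with lymphodepletion were 1.82 and 1.41 over T cell markers. They were 0.97 and 0.39 over B cell and 1.95 and 1.56 over NK cell markers. The part of these markers in the Bcl2 values was not tested. Fas, a death receptor, was at 0.34 ± 0.37, and its ligand Fasl at 0.95 ± 0.72. Of 24 genes of the BCL2 family and death receptors 1 had an unadjusted p under 0.05, Pmaip1, which encodes NOXA, at 0.85 ± 0.31 (adjusted p = 0.348).

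Suppressive effectors of MDSCs were either scarce or without a called interaction. Arg1 (0 to 9.91 normalized counts) and Nos2 (0 to 4.16), which deplete arginine and make nitric oxide, were too low to be tested in these M-MDSCs. Of 17 tested genes 11 were below 0 (median −0.33), beside 50.1% of all genes, and the median was −0.09 without lymphodepleted KO-labelled library 2 and −0.17 without untreated KO-labelled library 1. Lgals9, the ligand galectin-9, was at −0.87 ± 0.30 and Entpd1, the ectoenzyme CD39, at −0.64 ± 0.27 (limma adjusted p = 0.337 and 0.384). Cd274, which encodes PD-L1, was at 0.26 ± 0.44, and Tgfb1 at 0.20 ± 0.26.

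**Figure D4:**
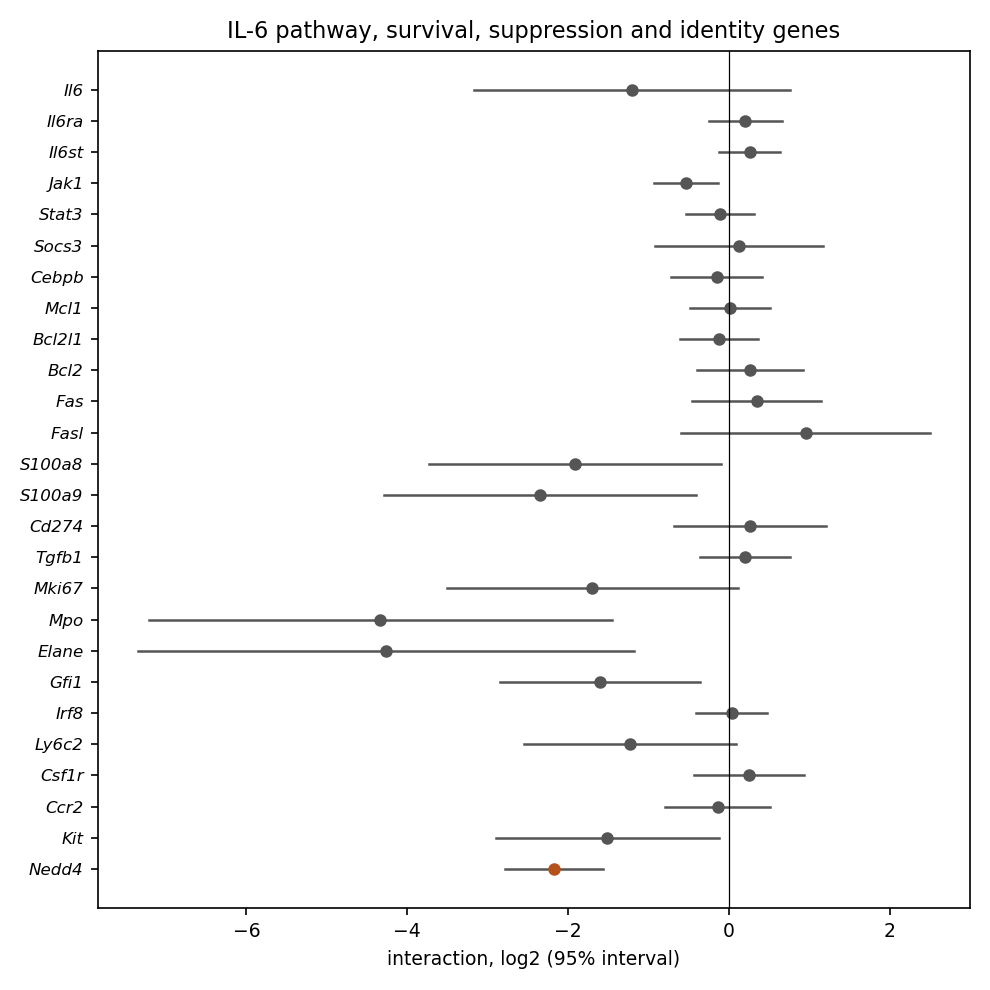
Interaction in M-MDSCs (log2, horizontal axis) of 26 tested genes of IL-6 signalling, survival, suppression, cell identity and Nedd4, with 95% intervals. Nedd4, in orange, was called by limma at −2.17, and the intervals of Mpo and Elane span over 5 log2 units.

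Identity genes of monocytes had no called interaction. Irf8, the factor that directs precursors to the monocyte fate, was at 0.03 ± 0.21, Csf1r at 0.25 ± 0.32, and Ccr2, the receptor that brings monocytes out of the marrow, at −0.14 ± 0.30, with intervals that include 0. Of 16 classical monocyte genes 11 were below 0 (median −0.18). The median was −0.49 without untreated KO-labelled library 3 and −0.07 without lymphodepleted KO-labelled library 2. Ly6c2 was at −1.23 ± 0.61 (limma adjusted p = 0.44). Kit, the stem cell factor receptor, had 30.6, 15 and 17.9 normalized counts in untreated WT-labelled and 80.4, 43.6 and 142 in untreated KO-labelled mice, which did not overlap, and −1.51 ± 0.64 (adjusted p = 0.384). It does not stand for other stem and progenitor genes: of the 11 tested, Kit among them, 6 were above 0 and 5 below.

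Genes of lipid synthesis and sugar use had no interaction called by limma or edgeR. Of 22 genes of cholesterol and fatty acid synthesis 19 were below 0 (median −0.46) and 8 at an unadjusted p under 0.05, beside 50.1% and 5.77% of all genes. DESeq2 called 2, Fasn and Scd2, beside 0.432% of all genes called below 0. Fasn, fatty acid synthase, had 389, 360 and 380 normalized counts in untreated WT-labelled mice and between 519 and 753 in the 9 other libraries. It rose by 0.54 in WT-labelled mice (limma adjusted p = 0.0118), and its interaction was −0.83 ± 0.19 (adjusted p = 0.285). Scd2, a fatty acid desaturase, was at −1.06 ± 0.25. Of 18 glycolysis genes 14 were below 0 (median −0.26), with the glucose transporter Slc2a3 at −1.46 ± 0.45 (adjusted p = 0.328) and Gapdh at −0.61 ± 0.24.

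Inflammatory genes likewise had no interaction called by limma. Of 20 NF-kB and cytokine genes 13 were above 0 (median 0.35) and 4 at an unadjusted p under 0.05, beside 49.9% and 6.44% of all genes. The median was 0.12 without untreated KO-labelled library 3, 0.13 without lymphodepleted KO-labelled library 1 and 0.23 without lymphodepleted WT-labelled library 3. Nfkbia, the inhibitor that NF-kB induces, had 1380, 1455 and 1434 normalized counts in untreated WT-labelled mice and 600, 838 and 610 after lymphodepletion, and 1036, 1149 and 793 and 973, 763 and 673 in KO-labelled mice. It fell by 1.08 in WT-labelled mice (limma adjusted p = 0.000756), and the interaction was 0.77 ± 0.24 (adjusted p = 0.328). Of 17 p53 targets 12 were above 0 (median 0.22), and the median was 0.11 without lymphodepleted KO-labelled library 1 and 0.14 without untreated KO-labelled library 3. Cdkn1a, the cell cycle inhibitor p21, was lowest in untreated KO-labelled mice (173, 181 and 112 against 404, 379 and 378 in untreated WT-labelled mice) and was at 0.88 ± 0.30 (adjusted p = 0.334). Type I interferon genes (28 tested, median −0.21) and class II antigen presentation genes (11 tested, median 0.21) changed the sign of their medians in 3 of 21 alternatives each, and without untreated KO-labelled library 3 the medians were −0.35 and −0.19. Of the former, 18 were below 0 and 10 above, with Xaf1 at −1.36 ± 0.42 (adjusted p = 0.328) and Ifi44 at 1.09 ± 0.63 (adjusted p = 0.492).

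Marker transcripts of other cell types were also present at different levels, and which cells they came from was not tested. The summed normalized count of 14 T cell markers was 1756 to 2866 in untreated KO-labelled against 493 to 835 in untreated WT-labelled libraries, and that of 12 B cell markers 1449 to 2210 against 817 to 952. Under lymphodepletion they were 286 to 812 against 159 to 262, and 219 to 285 against 173 to 220. Their median interactions were −0.38 and −0.54, and that of T cells turned to 0.12 without lymphodepleted KO-labelled library 2, as did that of NK cells, to 0.10. Of 13 erythroid genes in the table only 4 passed the filter, 4 haemoglobin genes were listed at 0 in all 12 libraries, and Car2, a carbonic anhydrase of red cell precursors, was at −3.28 ± 0.67 (limma adjusted p = 0.273, DESeq2 0.00125). Of 14 red pulp macrophage genes 9 were below 0 and 5 above (median −0.46). The lowest was C1qc, a complement subunit, at −2.97 ± 0.77 (limma adjusted p = 0.328, DESeq2 0.0414), so it does not stand for the list. None of these lists held a gene called by limma. DESeq2 called Car2, C1qc and Tfrc, beside 0.432% of all genes called below 0. Tfrc, the transferrin receptor, was at −1.47 ± 0.41 in limma (adjusted p = 0.328, DESeq2 0.0464).

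**Figure D5:**
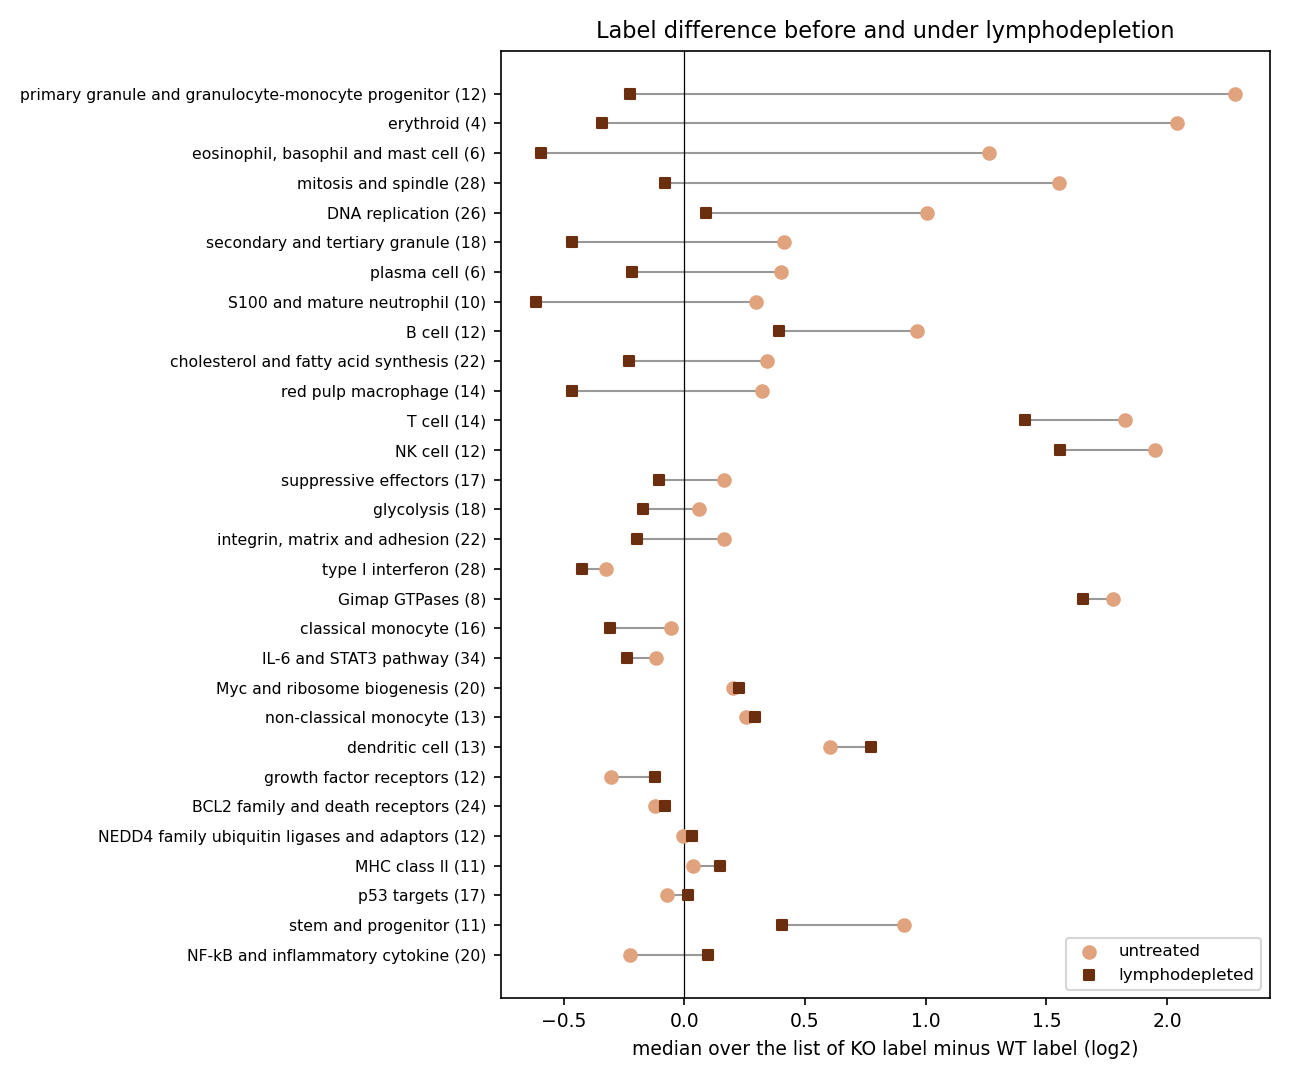
Median over each of 30 gene lists of the KO-minus-WT label difference (log2), without treatment (circles) and under lymphodepletion (squares), ordered by the median interaction, with the number of genes tested in parentheses. Primary granule genes move from 2.28 to −0.22 and mitosis genes from 1.55 to −0.08, while NK cell genes stay high, at 1.95 and 1.56.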

How the data were processed

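Total RNA of sorted spleen M-MDSCs was sequenced from 100 ng with a NuGen Ovation kit that depletes ribosomal transcripts, per the labels' protocols. The deposited table gives 1 signal value per gene and library, and this signal is a read count scaled by the authors. In the 12 M-MDSC libraries every value above 0 (100%) came out as a whole number of reads, within 0.001 reads, once divided by the smallest step of its library. Tools named in the submitters' processing notes are STAR 2.5.3a, HTSeq 0.6.1 and DESeq2, with the build mm10. The strand setting and the annotation were not given in the sources used here. Rn45s, a ribosomal precursor, took 6.07 to 19.8% of reads. Groups came from the labels' genotype, treatment and cell type. As the design text counts 3 mice per group, the spread between samples is taken as that between animals.

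The 12 libraries were fitted in limma 3.58.1 (R 4.3.3) after adding 1 and taking log2, with 1 mean per group and a variance trend, two-sided, with Benjamini-Hochberg adjustment over 11570 genes. A fold change on this scale understates that of low genes. The difference between cell types used all 24 libraries. Alternatives were pseudocounts of 0.5 and 5, no filter, quantile normalization, edgeR 4.0.16 and DESeq2 1.42.0 on recovered reads, a replicate block, array weights, a fit over all 24 libraries, and omission of each library in turn. Scripts were tested on simulated data. Named genes were those called, the 12 highest and 12 lowest by moderated t with a group mean of at least 100 (leaving out unnamed models, small RNAs, pseudogenes and receptor segments), 28 key genes, up to 3 per list by unadjusted p, the calls of edgeR and the largest of DESeq2, and the 5 most like Nedd4. Members and the 30 gene lists (498 genes, 496 in the table, 7 of them under an older symbol) were chosen with earlier results of these data known. Gene positions and promoters are RefSeq's (GRCm38.p6), matched for 11518 genes.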

Additional observations from a re-analysis of the deposited data

Results flagged for a closer look

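Nedd4 differed between the labels in its response to lymphodepletion, by the test of that difference itself: the interaction was −2.17 log2 units (limma adjusted p = 0.0301). It rose in 3 of 3 WT-labelled lymphodepleted libraries above all 3 untreated ones, and under the KO label the 2 treatments overlapped. The limma call was lost with quantile normalization (adjusted p = 0.0527), a replicate block (0.12), all 24 libraries in 1 fit (0.793) and in 10 of 12 fits without 1 library.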

How the results depend on the processing

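The Nedd4 interaction kept its sign in all 21 alternatives. It lost the threshold with all 24 libraries in 1 fit (−2.17, limma adjusted p = 0.793), with quantile normalization (−2.09, 0.0527), with the replicate block (−2.17, 0.12) and in 10 of 12 fits without 1 library (−2.37 to −1.98). The number of genes called for the interaction was 71 with DESeq2, 2 with edgeR, array weights or a pseudocount of 5, and 0 with all 24 libraries, quantile normalization or the replicate block, and ran from 0 to 7 without 1 library. The untreated label count, 466, became 1071 with DESeq2, 36 with all 24 libraries (31 higher, 5 lower), 1941 with array weights, 249 without the filter and 269 with the replicate block, and 54 to 576 without 1 library. The lymphodepleted label count, 24 (18 higher, 6 lower), became 185 with DESeq2 (120 and 65), 1 with all 24 libraries, 14 with array weights (13 and 1) and 8 with the replicate block (8 and 0), and 0 to 62 without 1 library. Response counts with all 24 libraries were 509 under the KO label and 815 (577 higher, 238 lower) under the WT label, and without 1 library 568 to 1710 and 1163 to 2469. The difference between cell types was called for 0 to 3 genes without 1 library, and edgeR and DESeq2 were not run on it, since whole reads were not recovered for all PMN-MDSC libraries. In each case the cause was not tested. The replicate numbers were not shown to pair the libraries: over 18 same-numbered pairs the correlation of deviations ran from −0.23 to 0.22, and 0 libraries correlated best with their own number.

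Signs changed only for 9 of 132 named genes, all of them near 0. Irf8 was −0.015 with edgeR and −0.040 with quantile normalization, Mcl1 −0.047 with DESeq2, −0.033 with array weights, −0.074 with edgeR and −0.022 with quantile normalization, and Socs3 −0.066 with array weights. Without 1 library, Bcl2 ran from −0.013 to 0.44, Ccr2 from −0.42 to 0.089, Cd274 from −0.071 to 0.59, Cebpb from −0.40 to 0.0088, Csf1r from −0.014 to 0.45, Irf8 from −0.16 to 0.13, Mcl1 from −0.16 to 0.15, Socs3 from −0.24 to 0.43 and Tgfb1 from −0.0011 to 0.35. Of 33 named genes that gained a call in some alternative, most did so with DESeq2 (33 of 40 gained calls). The median interaction of all genes stayed between −0.07 and 0.03. In simulated data for the interaction in M-MDSCs, with 11477 genes tested and 100 genes changed at each size, limma called 35% of changes of 1 log2 unit and 86% of changes of 2, so smaller changes can be missed at this depth and number of libraries. DESeq2 called 57% and 95%. Unchanged genes were called 8 times by limma, 7 times by edgeR and 25 times by DESeq2, so genes called by DESeq2 alone are less secure. The changed genes were drawn from better expressed genes only, and counts were simulated independently for each gene. More genes were changed than limma called in the data, which eases the adjusted threshold. These shares therefore need not hold for low genes or where a whole library shifts. Among alternatives chosen after seeing the data, the NEDD4 family median was 0.12 without Nedd4 and the primary granule median −2.61 without Nkg7.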
